A study of Mus musculus with 16 samples.

Results

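Pancreatic neuroendocrine tumours that had arisen on the C3HeB/Fe background (C3H) were compared with tumours of the C57Bl/6 background (B6), and background is the only label by which the 2 groups differ. The members are the 4 C3H and 7 B6 control libraries, 11 of the 16 libraries of the series, and every expressed gene in them, 16084 of the 23224 genes in the table. All mice carried RIP1Tag2, a transgene in which the rat insulin promoter drives the SV40 T antigens in beta cells. Tumours were taken at 14 to 16 weeks of age, from control mice that had no treatment or had saline for 3 days; the labels do not say which of these a given library had. The other 5 libraries came from B6 RIP1Tag2 mice of the same age given MK801, which blocks the NMDA receptor, at 1 mg/kg each day for 3 days, and served as further B6 tumours outside the contrast. Whether every library stands for its own mouse is not stated, and the p-values therefore speak of the spread among these libraries, part of which may be technical.

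B6 and C3H are long-established inbred strains, and each is fixed for its own alleles over the whole genome. They carry different haplotypes of the major histocompatibility complex (MHC), the gene-dense region whose class I and class II proteins present peptides to T cells. Several interferon-inducible gene families, among them the Ifi200, guanylate-binding protein and Trim families, sit in clusters of related copies that also vary between inbred strains. Dlgap1 encodes the GKAP scaffold, which joins PSD-95 to Shank proteins beneath the NMDA receptor, and the title of the series names GKAP as a genetic modulator of this receptor.

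Dlgap1 is shown by the 250 bases before its annotated starts because it is the gene of the study and was off in C3H tumours. Trim12a and Trim34b, which neighbour each other, are shown because they went opposite ways, Trim12a being off in C3H and Trim34b in B6 tumours. The sequences are those of RefSeq for the B6-derived build GRCm38.p6, 5′ to 3′ on the strand of the gene, with every CG pair in capitals. They are the same for both groups, as no C3H allele was read here. The windows lie at chr17:69968823-69969072 and chr17:70561497-70561746 for the 2 annotated starts of Dlgap1 (plus strand), chr7:104315496-104315745 for Trim12a (minus strand) and chr7:104329221-104329470 for Trim34b (plus strand).
Dlgap1, first start: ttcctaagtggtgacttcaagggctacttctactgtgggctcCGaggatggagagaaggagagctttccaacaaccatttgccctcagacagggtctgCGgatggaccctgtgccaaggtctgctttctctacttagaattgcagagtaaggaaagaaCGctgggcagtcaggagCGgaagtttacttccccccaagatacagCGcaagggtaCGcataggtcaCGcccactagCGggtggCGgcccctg
Dlgap1, second start: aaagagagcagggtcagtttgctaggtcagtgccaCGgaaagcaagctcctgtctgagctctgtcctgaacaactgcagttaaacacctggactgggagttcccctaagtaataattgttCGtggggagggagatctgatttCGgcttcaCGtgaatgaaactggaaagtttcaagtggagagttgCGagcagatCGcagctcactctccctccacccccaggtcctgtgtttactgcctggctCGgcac
Trim12a: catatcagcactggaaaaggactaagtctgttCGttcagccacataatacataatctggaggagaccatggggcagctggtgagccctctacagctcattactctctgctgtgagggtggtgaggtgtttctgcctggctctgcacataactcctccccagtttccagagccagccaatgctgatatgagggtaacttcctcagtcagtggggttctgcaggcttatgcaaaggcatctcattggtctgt
Trim34b: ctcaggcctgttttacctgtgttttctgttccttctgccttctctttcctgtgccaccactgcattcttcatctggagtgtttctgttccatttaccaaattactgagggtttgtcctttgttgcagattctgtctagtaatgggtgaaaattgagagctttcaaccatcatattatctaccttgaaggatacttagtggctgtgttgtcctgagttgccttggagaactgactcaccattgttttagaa
The pair CG, which reads the same on both strands, was counted in each window. It occurs 9 and 7 times in the Dlgap1 windows, 1 time in that of Trim12a and 0 times in that of Trim34b. Of the 32851 windows of this length in the table, 40.3%, 46.3%, 92.1% and 100% hold at least as many, in the same order. These counts describe the reference sequence and were not compared between strains.

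Total estimated counts ran from 38615267 to 43846563 in the B6 and from 39583620 to 49134550 in the C3H libraries. The unit of level is CPM, a gene's counts for every 1000000 of its TMM-scaled library, and 3 counts, the limit that a count of 0 allows, correspond to 0.0580 to 0.0773 CPM in these libraries. Both strains had the markers of beta or neuroendocrine cells at high level, and their summed level overlapped (26257 to 91510 CPM in B6, 63384 to 128317 CPM in C3H). None (0) of the 37 markers of 8 cell types passed the test between strains (edgeR; 5 had an unadjusted p under 0.05, DESeq2 called 2 and limma 1), where 2226 of the 16084 genes tested (13.8%) had an unadjusted p under 0.05. The summed levels of the acinar (45.3 to 49190.4 against 11.8 to 34933 CPM), macrophage (427 to 672 against 425 to 554 CPM) and T, NK and B cell markers (3.94 to 8.25 against 3.51 to 7.90 CPM) overlapped as well. In bulk tumour RNA, fewer cells of a type and less RNA per cell cannot be told apart.

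The strains differed in 386 genes, 2.40% of those tested, of which 142 (0.883%) were higher and 244 (1.52%) lower in C3H tumours (quasi-likelihood test of edgeR, adjusted p under 0.05 by Benjamini-Hochberg). The called genes were sorted by how the individual libraries lay. On/off genes were under 1 CPM in every library of the lower strain and at or over 1 CPM in every library of the higher strain, with the nearest libraries at least 4-fold apart. Stepped genes had no overlap between strains and nearest libraries at least 1.5-fold apart, graded genes had no overlap but a smaller gap, and the others overlapped. By these rules 33 genes (0.205% of those tested) were on/off, 121 stepped, 175 graded and 57 overlapping. The direction was unequal across the classes. Among the on/off genes 23 were higher (0.143% of those tested) and 10 lower (0.0622%) in C3H, among the stepped 51 and 70, and among the graded 51 and 124, so that on/off genes made up 16.2% of the higher and 4.10% of the lower calls. The median absolute log2 fold change was 6.03 for on/off, 2.68 for stepped, 1.19 for graded and 1.55 for overlapping genes. These medians follow from the way the classes were drawn. Whatever the p, 622 genes (3.87% of those tested) had no overlap between the 7 B6 and 4 C3H libraries, 1.5% being higher and 2.37% lower in C3H.

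**Figure D1:**
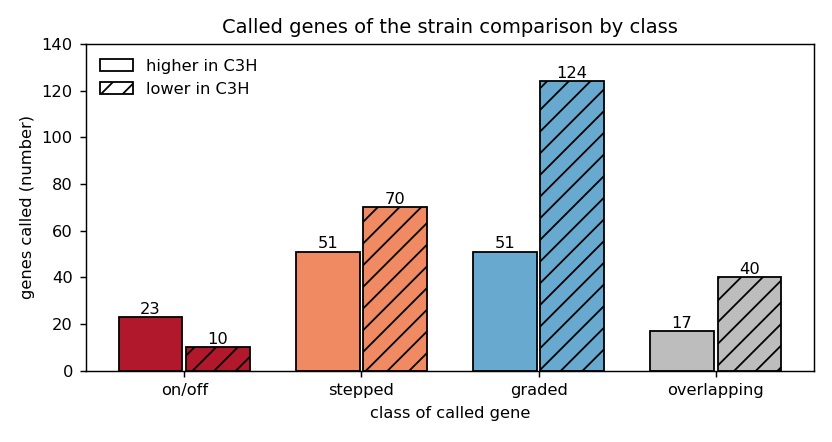
The vertical axis gives the number of called genes, and the bars give them by class (horizontal axis) and by direction, plain for higher and hatched for lower in C3H. Higher calls outnumber lower ones among the on/off genes (23 against 10), and lower calls outnumber higher ones among the graded genes (124 against 51).

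Genes of the MHC that were off in B6 and on in C3H tumours formed the first group. H2-Ea-ps, the class II alpha chain gene H2-Ea in current naming, ran from 0.0453 to 0.0902 CPM (median 0.0493) in the B6 libraries and stood at 28.7, 43.3, 35.7 and 28.9 CPM in the C3H libraries. Gm8909, a class I-like gene, ran from 0.0986 to 0.564 CPM (median 0.340) in B6 and was at 20.8, 27.8, 22.8 and 21.5 CPM in C3H. Its neighbour H2-Bl, a class I gene annotated as a transcribed pseudogene, ran from 0.0229 to 0.249 CPM (median 0.0773) in B6 and was at 10.7, 12.03, 9.61 and 7.197 CPM in C3H. In each of these genes the lowest C3H library was far above the highest B6 library. The log2 fold changes were 9.07 (SE 0.36, edgeR adjusted p = 5.8e-10), 6.02 (SE 0.51, adjusted p = 3.4e-06) and 6.68 (SE 0.57, adjusted p = 3.4e-06). LOC547349, which RefSeq lists with the synonym H2-K1, ran from 0 to 0.273 CPM in B6 (median 0) and was at 5.29, 14.0, 16.0 and 18.8 CPM in C3H (log2 fold change 7.36, SE 1.05, edgeR adjusted p = 0.00083). Class I genes are near-identical copies of one another, so the share of reads given to each of them is uncertain.

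Genes of interferon-inducible families made up another group of on/off genes, all of them higher in C3H except Trim12a. Ifi202b, a DNA-binding protein of the Ifi200 family, had 6 counts in all 7 B6 libraries together and stood at 21.2, 29.3, 17.7 and 19.2 CPM in C3H (edgeR adjusted p = 5.3e-07). H28, now named Ifi44l and known as a minor histocompatibility antigen, ran from 0 to 0.197 CPM (median 0.0515) in B6 and was at 18.2, 27.2, 17.7 and 12.3 CPM in C3H, a log2 fold change of 7.93 (SE 0.65, adjusted p = 2.6e-06). Gbp1, a guanylate-binding GTPase of the response to intracellular microbes, ran from 0.0258 to 0.549 CPM (median 0.159) in B6 and was at 17.4, 26.4, 18.9 and 13.8 CPM in C3H (log2 fold change 6.54, SE 0.63, adjusted p = 1.4e-05). In all 3 genes C3H replicate 2 was the highest library and no library of one strain reached the other. Gbp11, a further member of that family, lay just inside the on/off limits, with at most 0.366 CPM in B6 and 3.32, 6.22, 1.80 and 1.47 CPM in C3H. Cxcl11, a chemokine that attracts activated T cells, ran from 0.103 to 0.477 CPM (median 0.241) in B6 and was at 5.34, 4.78, 3.72 and 2.71 CPM in C3H (log2 fold change 4.02, SE 0.38, edgeR adjusted p = 1.0e-05). Members of the guanylate-binding and Trim families share much sequence, and reads can be split among them.

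The Trim pair went opposite ways. Trim34b had 4 counts in all B6 libraries together and was at 4.26, 6.64, 1.89 and 1.68 CPM in C3H (edgeR adjusted p = 2.6e-05). Its neighbour Trim12a, the other gene whose window is printed above, ran from 2.71 to 8.37 CPM (median 5.28) in B6 and was at 0.0507, 0.135, 0.0234 and 0 CPM in C3H, a log2 fold change of -6.61 (SE 0.72, adjusted p = 5.2e-05). The strains were separated in both genes. Both belong to the tripartite motif family, in which Trim5-like proteins restrict retroviruses, and their copies are similar enough that their levels are uncertain.

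Other on/off genes higher in C3H encode proteases. Klk1b22, a serine protease of the tissue kallikrein family, had 3 counts in all B6 libraries together and was at 17.6, 12.8, 6.08 and 7.02 CPM in C3H. Masp2, the protease that starts the lectin pathway of complement, ran from 0.0515 to 0.248 CPM (median 0.123) in B6 and was at 2.51, 4.04, 2.62 and 1.84 CPM in C3H (log2 fold change 4.21, SE 0.40, edgeR adjusted p = 1.2e-05). Gm5077, now named C1s2 and a copy of the complement C1s protease gene, ran from 0 to 0.181 CPM (median 0.0724) in B6 and was at 1.62, 3.64, 2.55 and 2.96 CPM in C3H (log2 fold change 5.03, SE 0.56, adjusted p = 5.8e-05). All 4 C3H libraries lay above all 7 B6 libraries in each.

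Enzyme, meiotic and histone genes completed the named genes of this direction. Hal, which breaks down histidine, ran from 0.0226 to 0.103 CPM (median 0.0680) in B6 and was at 2.08, 4.33, 1.85 and 8.34 CPM in C3H, a log2 fold change of 6.03 (SE 0.50, edgeR adjusted p = 3.2e-06). Sycp1, which builds the synaptonemal complex of meiotic chromosomes, had 4 counts in all B6 libraries together and was at 1.62, 4.08, 8.77 and 6.31 CPM in C3H. Relative to their level, the C3H libraries were spread more widely in these genes than in those of the MHC, without reaching the B6 libraries. Acaa1b, a thiolase of peroxisomal fatty acid breakdown, and the H2B histone genes Hist1h2bk and Hist2h2bb were at 0 to 0.294 CPM in B6 and 1.14 to 5.09 CPM in C3H, with edgeR adjusted p-values from 5.8e-06 for Hist2h2bb to 0.0040 for Acaa1b. Pira11, a paired immunoglobulin-like receptor of a multigene family, had 3 counts in 1 B6 library and none in the others, against 1.06, 4.24, 2.55 and 3.00 CPM in C3H. The split of reads among related copies was not tested for Pira11 or the histone genes either.

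The other on/off genes higher in C3H are little characterised transcripts. Gm8615, annotated as a transcribed pseudogene, had the highest counts among them, with 0.0229 to 0.477 CPM (median 0.227) in B6 and 54.5, 85.7, 93.3 and 58.9 CPM in C3H (log2 fold change 8.24, SE 0.49, edgeR adjusted p = 1.4e-07). The pseudogenes Gm8801 and Gm6682 and the gene Gm15698, now Elobl, were at 0 to 0.419 CPM in B6 and 1.30 to 7.45 CPM in C3H. Of the 23 on/off genes higher in C3H, 15 had a C3H mean under 10 CPM, and of the 10 lower in C3H, 9 had a B6 mean under 10 CPM, so most on/off calls rest on modest counts.

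Dlgap1 had the highest B6 level in CPM among the 10 genes that were on in B6 and off in C3H tumours, while 3110007F17Rik and Adamdec1 had wider gaps between the strains. It ran from 23.8 to 38.2 CPM (median 28.3) in B6 and was at 0.203, 0.292, 0.678 and 0.967 CPM in C3H, with 8, 13, 29 and 50 counts in the C3H libraries (log2 fold change -5.78, SE 0.42, edgeR adjusted p = 5.3e-07). No C3H library came near the B6 range, but the highest, at 0.967 CPM, lay just under the on/off limit of 1 CPM. Among the 8 tested genes on either side of Dlgap1, Ndc80, the outermost on one side and a kinetochore gene of the mitosis list, was the one gene called (log2 fold change -1.198, adjusted p = 0.027). Tgif1 and A330050F15Rik, the tested genes next to Dlgap1, had log2 fold changes of -0.10 and 0.46 (adjusted p = 0.923 and 0.502). Beyond Tgif1, the next 3 tested genes, Myl12b, Myl12a and Myom1, had log2 fold changes of -0.35, -0.41 and -0.95, with unadjusted p-values of 0.033, 0.047 and 0.037 and adjusted p-values of 0.303, 0.352 and 0.321.

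Apoa2 and Apoc2 encode apolipoproteins and were off in C3H. Apoa2, a protein of high density lipoprotein, ran from 1.47 to 3.27 CPM (median 2.15) in B6 and was at 0.177, 0.0673, 0 and 0 CPM in C3H, a log2 fold change of -5.13 (SE 0.75, edgeR adjusted p = 0.00097). Apoc2, which activates lipoprotein lipase, ran from 1.08 to 2.85 CPM (median 1.93) in B6 and was at 0.0253, 0.135, 0.0234 and 0.0967 CPM in C3H (log2 fold change -4.69, SE 0.48, adjusted p = 2.6e-05). Every C3H library was under every B6 library in both. Apoe, the neighbour of Apoc2 and a main apolipoprotein of macrophages and liver, was a stepped gene, with 766 to 1189 CPM (median 905) in B6 and 379.8, 277, 209.8 and 381 CPM in C3H (log2 fold change -1.61, SE 0.25, adjusted p = 0.0018).

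Of the remaining genes off in C3H, Vnn3, a pantetheinase of the vanin family, ran from 1.31 to 2.50 CPM (median 1.74) in B6 and was at 0, 0.0224, 0.0234 and 0.0774 CPM in C3H (log2 fold change -5.72, SE 0.64, edgeR adjusted p = 5.8e-05). Prlhr, the receptor for prolactin-releasing peptide, ran from 1.08 to 3.95 CPM (median 2.22) in B6 and was at 0.0253, 0.269, 0.164 and 0.232 CPM in C3H (log2 fold change -3.70, SE 0.59, adjusted p = 0.0023). The strains did not overlap in either gene. Syngr4, a synaptogyrin, and the long noncoding RNA 4930481A15Rik were lower in C3H by 2.88 and 3.97 on the log2 scale, and Adamdec1, a metalloprotease of macrophages and dendritic cells, and 3110007F17Rik, now Cldn34c1, had 4 counts and 1 count in all C3H libraries together against 2495 and 1023 counts in B6.

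**Figure D2:**
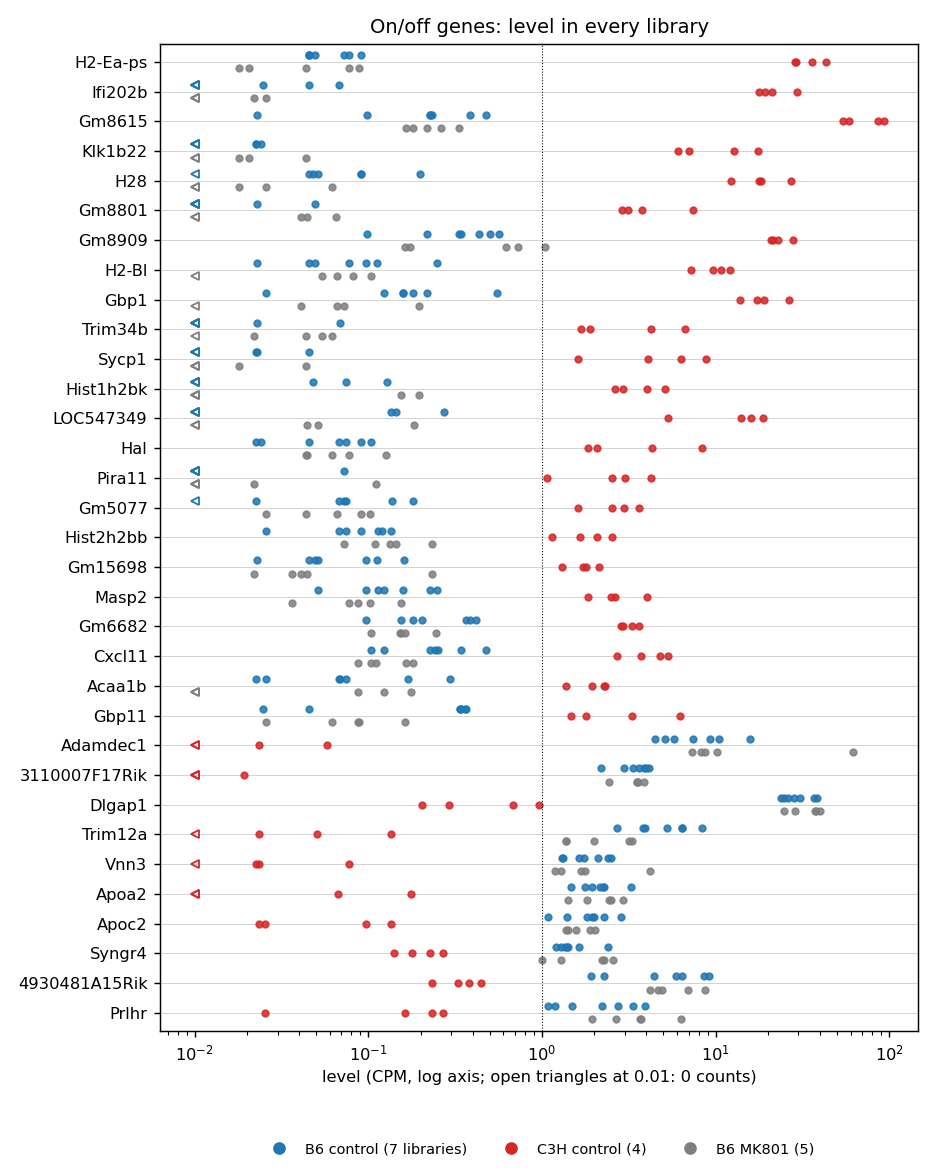
Each row is an on/off gene and each point a library, with the level in CPM on a log axis; blue marks the 7 B6 controls, red the 4 C3H controls and grey the 5 B6 libraries after MK801, and the dotted line marks 1 CPM. The blue and red points lie on opposite sides of the line in every row. The grey points lie on the side of the blue ones, except 1 of Gm8909 that is just over the line (1.05 CPM).

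The B6 libraries taken after MK801 gave a reading of B6 tumours that had no part in the contrast, although they also differ by the drug and helped to set the estimated spread. A gene was counted as B6-like there when all 5 libraries lay on the B6 side of the midpoint, on the log2 scale, between the nearest libraries of the strains. The levels after MK801 could lie outside the range of the controls, as for Trim12a (1.37 to 3.32 CPM). All 33 on/off genes were B6-like, against 101 of 121 stepped genes (83.5%), 135 of 175 graded genes (77.1%) and 45 of 57 overlapping genes (78.9%). A wider gap leaves more room on the B6 side, so the order of these shares is in part set by the classes. Mnda, the Ifi200 gene next to Ifi202b, shows the other pattern: it ran from 10.02 to 29.5 CPM (median 16.7) in B6 controls, stood at 4.58, 7.54, 5.21 and 5.18 CPM in C3H and ran from 3.95 to 9.69 CPM after MK801. Its call (log2 fold change -1.65, SE 0.34, edgeR adjusted p = 0.017) was lost without C3H replicate 1, 3 or 4 (adjusted p of up to 0.0652).

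The classes also differed in how far a call depended on single libraries. Each of the 33 on/off genes was called in all 11 fits that left out 1 library, as were 86 of the 121 stepped genes (71.1%), 34 of the 175 graded genes (19.4%) and 2 of the 57 overlapping genes (3.51%). The size of the gap that defines the classes bears on this order too. The number of lower genes, 244 with all libraries, was 152, 112, 104 and 142 without C3H replicates 1, 2, 3 and 4. At the edge of the on/off class, Gbp11, Prlhr and 4930481A15Rik had the smallest gaps inside (4.02-fold, 4.03-fold and 4.33-fold), and 6330549D23Rik, H2-DMb2 and Gm13154 the largest outside (3.85-fold, 3.61-fold and 3.47-fold). A gap under 4-fold kept out 21 called genes that met the 1 CPM limits, and the CPM limits kept out 18 called genes with a gap of at least 4-fold, 12 because the lower strain reached 1 CPM in a library and 6 because the higher strain was under it. Gm853 was one of the latter: it had 0 counts in all 7 B6 libraries and 0.583, 1.46, 0.561 and 0.793 CPM in C3H.

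Stepped genes were separated by a clear gap but lay outside the on/off limits. Among those higher in C3H, H2-Q10, a secreted class I molecule, ran from 0.444 to 1.11 CPM (median 0.555) in B6 and was at 8.38, 11.6, 9.94 and 7.64 CPM in C3H (log2 fold change 3.89, SE 0.27, edgeR adjusted p = 5.3e-07). H2-K2, another class I gene, ran from 1.13 to 12.4 CPM (median 4.92) in B6 and was at 38.2, 37.5, 31.9 and 35.7 CPM in C3H (log2 fold change 2.70, SE 0.42, adjusted p = 0.0019). C3H libraries were tightly grouped in both genes and above every B6 library. A730098P11Rik, now Morf4l1-ps1, and Gm11968, now Rps15a-ps6, are processed copies of a chromatin gene and a ribosomal protein gene by name, and their levels are uncertain for that reason. They rose by log2 fold changes of 3.33 (SE 0.21, adjusted p = 2.1e-07) and 2.05 (SE 0.26, adjusted p = 0.00024).

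Other stepped genes higher in C3H had varied roles. Alad, the porphobilinogen synthase of haem synthesis, ran from 16.6 to 34.0 CPM (median 21.6) in B6 and was at 65.4, 64.1, 56.0 and 58.2 CPM in C3H (log2 fold change 1.33, SE 0.19, edgeR adjusted p = 0.00076). Zmynd10, which assembles the dynein arms of motile cilia, ran from 0.386 to 1.28 CPM (median 0.789) in B6 and was at 8.38, 7.65, 3.79 and 4.95 CPM in C3H (log2 fold change 3.00, SE 0.36, adjusted p = 0.00013). Hddc3, a metal-dependent hydrolase, ran from 6.89 to 11.4 CPM (median 7.92) in B6 and was at 29.8, 21.0, 29.2 and 23.02 CPM in C3H (log2 fold change 1.52, SE 0.20, adjusted p = 0.00033). The 4 C3H libraries stood above all B6 libraries in these genes. Igj, the joining chain of secreted IgA and IgM, ran from 1.44 to 4.46 CPM (median 2.25) in B6 and was at 7.68, 10.1, 9.28 and 8.57 CPM in C3H (log2 fold change 1.90, SE 0.34, adjusted p = 0.0052), while the markers of T, NK and B cells overlapped between strains, as given above; their part in this difference was not tested.

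Stepped genes lower in C3H included motor, adaptor and chemokine genes. Ccl27a, a chemokine of skin-homing T cells, ran from 9.20 to 19.3 CPM (median 16.1) in B6 and was at 2.03, 1.95, 1.96 and 1.82 CPM in C3H, a log2 fold change of -2.96 (SE 0.25, edgeR adjusted p = 3.4e-06). Myo7a, the myosin of inner ear hair cells and retina, ran from 14.3 to 28.8 CPM (median 21.0) in B6 and was at 2.001, 3.01, 2.104 and 3.00 CPM in C3H (log2 fold change -3.00, SE 0.29, adjusted p = 1.2e-05). Kctd13, an adaptor of the cullin 3 ubiquitin ligase, ran from 25.0 to 73.9 CPM (median 50.8) in B6 and was at 9.80, 9.31, 8.65 and 10.002 CPM in C3H (log2 fold change -2.29, SE 0.26, adjusted p = 7.7e-05). C3H libraries varied little in these genes, and each lay below the lowest B6 library. Lyrm7, an assembly factor of respiratory complex III, and Ppfia4, a liprin of presynaptic scaffolds, fell by 2.30 and 3.37 on the log2 scale. Dynlt1a, a dynein light chain gene with near-identical copies, fell by 4.57 on the same scale, and its level is uncertain because of the copies.

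Graded genes were set apart by a narrow gap between the nearest libraries, not by the size of the change. Those higher in C3H had log2 fold changes from 0.447 to 7.87 (median 1.29). Those lower in C3H had log2 fold changes from -6.69 to -0.418 (median -1.14). Glo1, which detoxifies methylglyoxal, ran from 79.4 to 110.1 CPM (median 89.0) in B6 and was at 224, 159.7, 220.5 and 171 CPM in C3H (log2 fold change 1.10, SE 0.14, edgeR adjusted p = 0.00019). Galnt11, a starter enzyme of O-linked glycosylation, ran from 37.8 to 55.8 CPM (median 46.3) in B6 and was at 71.8, 76.8, 102 and 72.2 CPM in C3H (log2 fold change 0.78, SE 0.14, adjusted p = 0.0049). Cd300lf, an inhibitory receptor of myeloid cells, ran from 2.61 to 4.56 CPM (median 3.64) in B6 and was at 8.87, 10.5, 6.804 and 7.74 CPM in C3H (log2 fold change 1.29, SE 0.22, adjusted p = 0.0045). The lowest C3H library of each stood above the highest B6 library. These 3 genes kept their calls whichever library was left out.

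Graded genes lower in C3H outnumbered those higher (124 against 51). Exosc9, a subunit of the RNA exosome, ran from 44.1 to 69.8 CPM (median 50.6) in B6 and was at 30.2, 28.1, 29.8 and 23.9 CPM in C3H (log2 fold change -0.96, SE 0.14, edgeR adjusted p = 0.0011). Mrpl35, a protein of the mitochondrial ribosome, ran from 23.6 to 32.6 CPM (median 27.9) in B6 and was at 17.1, 13.7, 12.3 and 12.5 CPM in C3H (log2 fold change -1.04, SE 0.15, adjusted p = 0.0012). Clns1a, a chaperone of splicing particle assembly, ran from 74.8 to 95.4 CPM (median 82.6) in B6 and was at 56.97, 47.9, 51.2 and 44.4 CPM in C3H (log2 fold change -0.73, SE 0.11, adjusted p = 0.0014). All C3H libraries were below all B6 libraries in these genes, by a narrow margin. Cdca3, which promotes entry into mitosis, ran from 73.5 to 161 CPM (median 108) in B6 and was at 60.9, 32.2, 33.6 and 42.6 CPM in C3H (log2 fold change -1.51, SE 0.23, adjusted p = 0.0017). None of these 4 calls was lost on leaving out a single library.

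Further genes beyond these groups showed how wide the classes are. Abhd1, a hydrolase-fold gene, ran from 0.659 to 1.495 CPM (median 1.06) in B6 and was at 4.23, 5.05, 6.13 and 3.89 CPM in C3H (log2 fold change 2.15, SE 0.23, edgeR adjusted p = 4.9e-05). Scn1a, a voltage-gated sodium channel of neurons, ran from 0.338 to 2.71 CPM (median 0.801) in B6 and was at 0.0253, 0.0224, 0.0468 and 0.0193 CPM in C3H, a few counts per library (log2 fold change -5.17, SE 0.80, adjusted p = 0.0016). Rab6b, a GTPase of Golgi transport, ran from 1.11 to 12.4 CPM (median 8.30) in B6 and was at 0.709, 0.696, 0.421 and 0.832 CPM in C3H (log2 fold change -3.51, SE 0.57, adjusted p = 0.0028). Rab6b was graded by rule because 1 B6 library lay close to the C3H libraries. Srp54a and Srp54b, near-identical genes of the signal recognition particle whose levels are uncertain for that reason, lay in a run of 4 lower genes with log2 fold changes of -0.85 and -1.26. The call of Srp54b was lost without C3H replicate 2 or 4 (adjusted p of up to 0.0667).

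**Figure D3:**
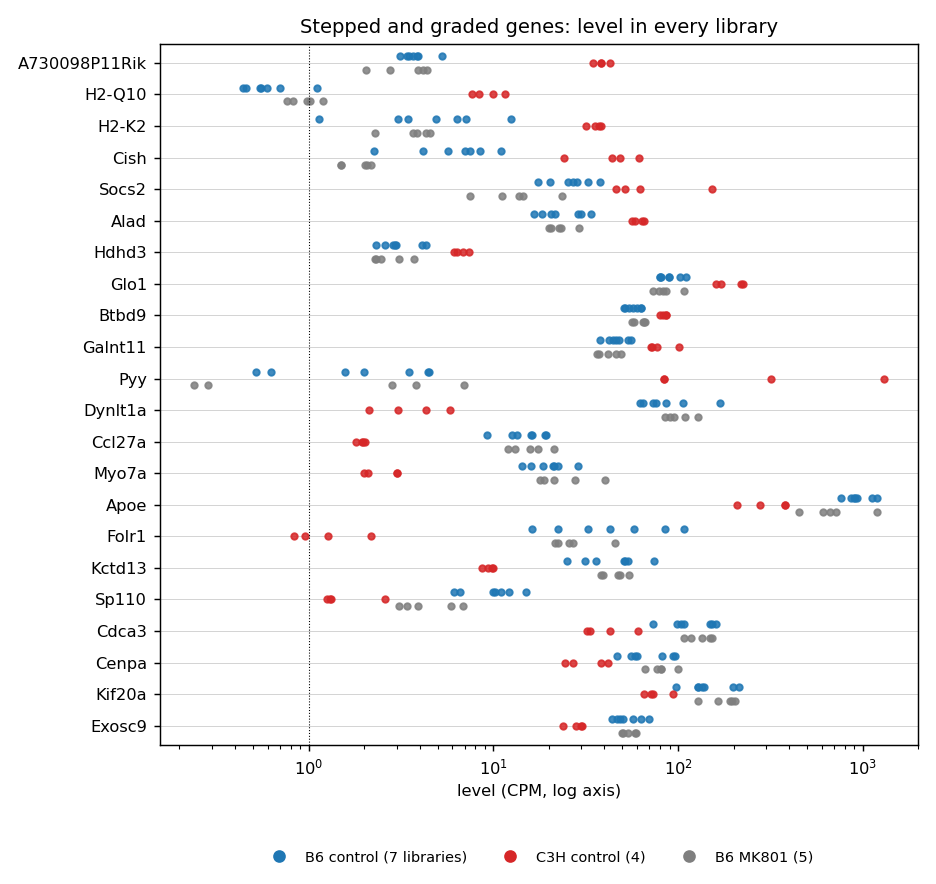
Each row is a stepped or graded gene and each point a library, with the level in CPM on a log axis; blue marks the 7 B6 controls, red the 4 C3H controls and grey the 5 B6 libraries after MK801. Red and blue points are separate in every row, by a wide gap in stepped genes such as Dynlt1a (10.6-fold between nearest libraries) and a narrow one in graded genes such as Kif20a (1.04-fold).

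Called genes tended to lie beside other called genes. With tested genes ordered by their place in the RefSeq annotation of GRCm38.p6, 8.77% of all placed genes had a called gene within 2 tested genes on either side, against 24% of the called genes, 40.6% of the on/off, 27.5% of the stepped and 20.6% of the graded genes. Neighbours can be copies that share reads, and their values are not independent. There were 42 such runs holding 91 called genes, and in 31 of them all genes went the same way. Besides Apoe with Apoc2, 1 such pair was Glo1 with Btbd9, which carries a BTB domain and ran from 51.2 to 63.3 CPM (median 57.1) in B6 against 82.5, 86.0, 86.3 and 79.5 CPM in C3H (log2 fold change 0.55, SE 0.10, edgeR adjusted p = 0.0049). Another was Alad with Hdhd3, a hydrolase-like gene that ran from 2.33 to 4.30 CPM (median 2.93) in B6 against 7.397, 6.37, 6.83 and 6.11 CPM in C3H (log2 fold change 1.08, SE 0.22, adjusted p = 0.016; without C3H replicate 1 the call was lost, at 0.0665). Both neighbours were above the B6 range in every C3H library. Gbp10 lay beside Gbp11 and rose by 4.42 (SE 0.72, adjusted p = 0.0027), and C1rb, a complement C1r copy, lay beside Gm5077 and rose by 4.25 (SE 0.69, adjusted p = 0.0027), both on the log2 scale. These partners were chosen after their values were seen.

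In 11 runs neighbours moved in opposite directions, Trim12a with Trim34b among them. Amdhd1, which acts after Hal in the breakdown of histidine, fell while its neighbour Hal rose: it ran from 0.173 to 1.42 CPM (median 1.10) in B6 and was at 0.0507, 0.180, 0.0234 and 0.0580 CPM in C3H (log2 fold change -3.45, SE 0.66, edgeR adjusted p = 0.0096). C3H replicate 2 overlapped the lowest B6 library in this gene. Ppfia4 fell beside Adora1, an adenosine receptor gene that rose by 2.80 on the log2 scale (SE 0.62, adjusted p = 0.024). The call of Adora1 was lost without C3H replicate 2 or 3 or without B6 replicate 3 or 4 (adjusted p of up to 0.0781). AA388235 fell by 2.55 beside H2-K2.

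Gene classes were then described by the members called and by their median, beside a median of -0.03 over all genes. The mitosis and kinetochore list held more calls than any other list: of its 30 members 10 fell (33.3% called, against 2.40% of all genes), 0 rose and 0 had a positive log2 fold change, with a median of -0.86; at an unadjusted p under 0.05 the counts were 26 lower and 0 higher, where 13.8% of all genes passed in either direction, and DESeq2 called 16 lower and 0 higher and limma 9 and 0. Cenpa, the histone variant of centromeres, ran from 47.0 to 96.1 CPM (median 59.7) in B6 and was at 41.5, 24.6, 27.0 and 38.5 CPM in C3H (log2 fold change -1.10, SE 0.22, edgeR adjusted p = 0.014). Cdc25c, the phosphatase that activates Cdk1, ran from 25.1 to 57.6 CPM (median 31.7) in B6 and was at 18.4, 15.7, 15.1 and 24.6 CPM in C3H (log2 fold change -1.07, SE 0.24, adjusted p = 0.024). The strains did not overlap in either, by a narrow margin, and C3H replicates 1 and 4 were the highest of the C3H libraries. Averaged over the list, log2 CPM ran from 6.10 to 7.197 in B6 and from 5.55 to 6.28 in C3H, so that the highest C3H library lay within the B6 range. The 10 calls fell to 2, 0, 0 and 8 without C3H replicates 1, 2, 3 and 4, and ran from 7 to 14 without 1 B6 library. The adjusted p of Cenpa reached 0.0838 without C3H replicate 2 or 3, and that of Cdc25c reached 0.116 without C3H replicate 1, 2 or 3. In the DNA replication list 0 of 30 members were called by edgeR (11 had an unadjusted p under 0.05, DESeq2 called 1 and limma 0) and 2 had a positive log2 fold change, with a median of -0.39.

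Immune lists differed in their counts and directions. In the MHC class I and peptide loading list 5 of 26 members rose and 1, H2-Q2, fell (23.1% called, against 2.40% of all genes), and 20 of the 26 had a positive log2 fold change, with a median of 0.46. In the MHC class II list H2-Ea-ps and H2-DMb2 rose and none of the other 12 of 14 was called (median -0.16). H2-DMb2, a chain of the peptide-loading DM molecule, ran from 0.273 to 0.892 CPM (median 0.641) in B6 and was at 3.22, 3.84, 3.34 and 3.79 CPM in C3H (log2 fold change 2.45, SE 0.34, edgeR adjusted p = 0.00061). Every C3H library was above every B6 library in H2-DMb2. Over all 33 tested genes with an H2 symbol, 8 rose and 1 fell, or 27.3% called, while 18 of the 33 had a log2 fold change at or below 0 and the median was -0.10. The call of H2-Q2 was lost on leaving out each C3H library in turn.

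Most members of the interferon-stimulated list were higher in C3H, with few calls. Positive log2 fold changes were found in 37 of its 41 members, with a median of 0.75. By edgeR 1 member, Ifi44, rose and 1, Sp110, fell (4.88% called, against 2.40% of all genes). At an unadjusted p under 0.05, which 13.8% of all genes passed, 22 members were higher and 1 lower, and DESeq2 and limma each called 2 higher and 1 lower. Sp110, a nuclear body protein of macrophages, ran from 6.14 to 15.0 CPM (median 10.2) in B6 and was at 1.27, 2.58, 1.31 and 1.32 CPM in C3H (log2 fold change -2.65, SE 0.36, edgeR adjusted p = 0.00042). Ifi44, the neighbour of H28, ran from 8.16 to 28.0 CPM (median 19.3) in B6 and was at 39.3, 117, 66.0 and 30.7 CPM in C3H (log2 fold change 1.88, SE 0.46, adjusted p = 0.041). No C3H library overlapped the B6 libraries in these genes, yet the call of Ifi44 was lost without C3H replicate 2 or 3 and on leaving out any one of B6 replicates 1 to 6 (adjusted p of up to 0.22). The summed level of the list ran from 729 to 1749 CPM in B6 and from 1657 to 2967 CPM in C3H. In the macrophage list Adamdec1 and Fcer1g fell, 0 of 23 members rose (8.70% called) and 3 had a positive log2 fold change, with a median of -0.51; on leaving out each C3H library in turn 1 call was left. At an unadjusted p under 0.05 there were 10 lower and 0 higher members, and 2 of the 4 defining macrophage markers were lower by the same measure, although their summed level overlapped between strains (given above). Their part in the list's values was not tested.

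Genes of cytokine feedback and of the clock were mostly higher in C3H, with few or no calls. Of 25 genes of growth hormone, prolactin and cytokine JAK-STAT feedback, Cish and Socs2 rose and none fell (8% called, median 0.44). Socs2, a suppressor of growth hormone signalling, ran from 17.5 to 37.8 CPM (median 26.9) in B6 and was at 153, 45.9, 62.1 and 51.4 CPM in C3H (log2 fold change 1.53, SE 0.33, edgeR adjusted p = 0.021). C3H replicate 1 was the highest by far, and without it the call was lost (adjusted p = 0.112). In the circadian clock list 0 of 17 members passed the test (edgeR; 9 had an unadjusted p under 0.05, DESeq2 called 3 and limma 1), 14 had a positive log2 fold change and the median was 0.69; Per3 and Cry1, repressors of the clock, had log2 fold changes of 0.96 and 0.85 (adjusted p = 0.079 and 0.116). The mean of this list was 3.74 to 4.67 log2 CPM in B6 and 4.78 to 5.04 in C3H, with no overlap, and the labels used here give no hour of collection.

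Lists of the tumour cell itself held few or no calls. At the 2.40% share called among all genes, lists of this size would hold few. None of the 21 beta cell transcription factors, 16 genes of insulin, Iapp and prohormone processing, 29 secretory granule and exocytosis genes or 18 glucose sensing and beta cell receptor genes passed the test (edgeR), with medians of 0.33, -0.01, 0.01 and 0.36. At an unadjusted p under 0.05, which 13.8% of all genes passed, there were 1, 2, 4 and 2 such genes. DESeq2 called 0, 1, 0 and 1, and limma called 0, 0, 0 and 1. Chga, the granule protein chromogranin A, had the lowest p in the list of insulin, Iapp and prohormone processing. It ran from 4152 to 7000.0 CPM (median 5405) in B6 and was at 16922, 9109.5, 16688 and 9369 CPM in C3H (log2 fold change 1.31, SE 0.38, edgeR adjusted p = 0.092). Its strains did not overlap, and missing the threshold does not show that levels were equal. The list of other islet hormones held 1 riser, Pyy, among 19 members (5.26% called, against 2.40% of all genes). The median of this list was -0.999, and DESeq2 and limma each called 2 members higher and 0 lower. Pyy ran from 0.518 to 4.48 CPM in B6 and was at 1302, 84.5, 317 and 84.3 CPM in C3H. Its log2 fold change was 7.51 (SE 1.02, edgeR adjusted p = 0.00048). The summed alpha, delta and PP cell markers ran from 68.1 to 347 CPM in B6 and from 135 to 984 CPM in C3H. DESeq2 and limma each called 1 of these 3 markers higher, and edgeR called 0. The part of these markers in the rise of Pyy was not tested. Among 20 other glutamate and GABA receptor genes the median was -0.91 with 0 calls by edgeR. At an unadjusted p under 0.05, which 13.8% of all genes passed, 1 was higher and 8 were lower. DESeq2 called 2 of them and limma 0.

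Large families mostly stayed near the background share of calls. Of 280 solute carrier genes 1 rose and 3 fell (1.43%), and of 370 Zfp and Zscan zinc finger genes 3 rose and 3 fell (1.62%). Slc24a5, a cation exchanger of pigment granules, ran from 23.8 to 49.2 CPM (median 36.5) in B6 and was at 12.7, 19.3, 14.4 and 12.3 CPM in C3H (log2 fold change -1.25, SE 0.22, edgeR adjusted p = 0.0045). Unnamed gene models with Gm or Rik symbols had 27 risers and 44 fallers among 1683, or 4.22%, which is above the 2.40% of all genes. Of the 33 on/off genes 8 were of this kind, as were 1683 of all 16084 genes tested. Together the lists of known genes held 810 tested genes, of which 40 (4.94%, against 2.40% of all genes) were called and 4 were on/off.

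**Figure D4:**
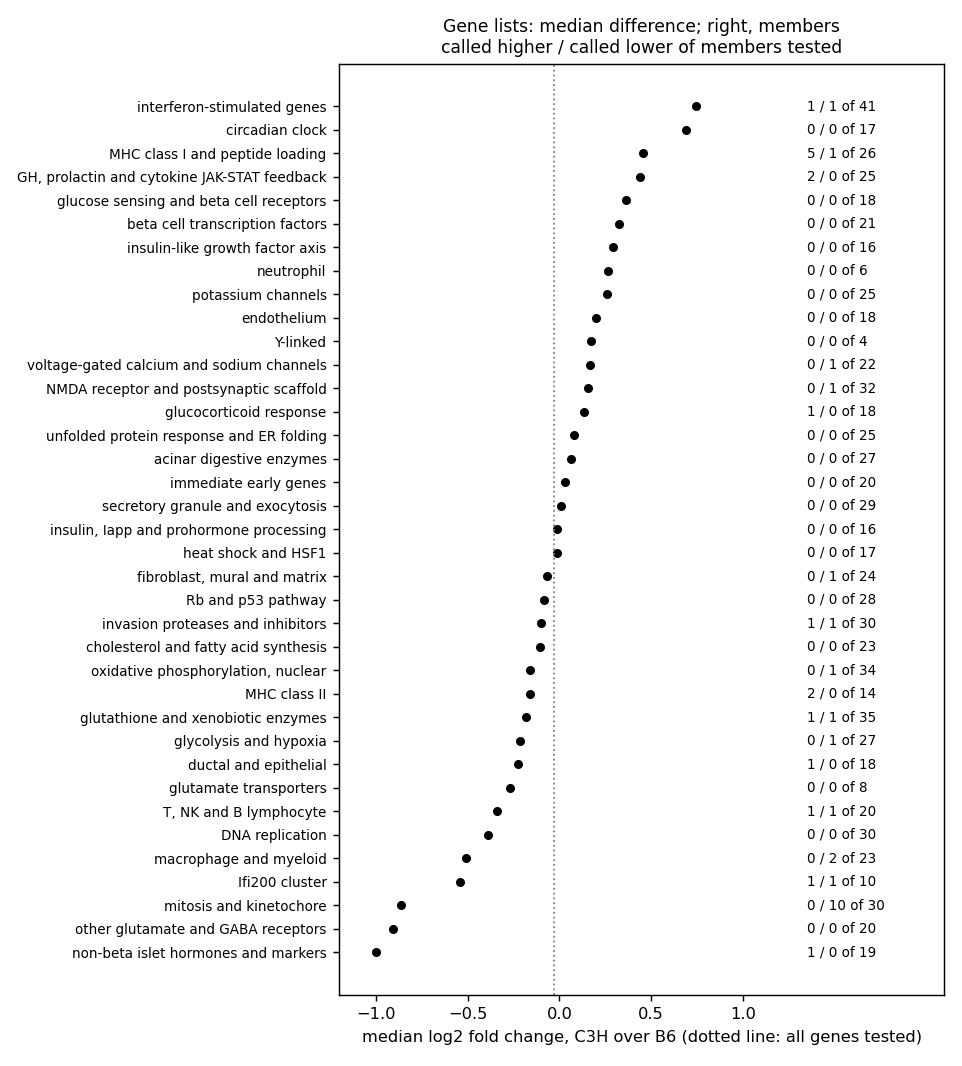
Points give the median log2 fold change, C3H over B6, of each gene list (horizontal axis), the dotted line marks the median of all genes tested, and the numbers at the right give the members called higher, called lower and tested. Among the lists shown, the mitosis and kinetochore list holds the most calls, with 10 of 30 lower, and the interferon-stimulated list has the highest median (0.75) with 1 call in each direction.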

How the data were processed

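TruSeq libraries of polyA RNA were sequenced, per the labels' protocols. The authors deposited estimated counts per gene, not normalized; the submitters' processing notes name RSEM 1.2.12, Bowtie 1.0.1 and mm9 without roles. The annotation, the filters and any use of strand are not given in the sources used. A normalized table was not used. Of the 23224 symbols 25 had turned into dates; 22 of them were tested and 0 called. No column (0) lacked a sample.

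Estimated counts were rounded and tested in R 4.3.3 with edgeR 4.0.16 (filterByExpr, TMM, glmQLFit and glmQLFTest) in 1 fit of all 3 groups, with Benjamini-Hochberg adjustment over 16084 genes and a threshold of 0.05. Standard errors were taken as the absolute log2 fold change divided by the root of the F statistic. Zeros were set to 3 counts when gaps were computed. Replicate numbers were not taken to pair the samples, and no 2 libraries of a group agreed within sampling noise (lowest chi-square 117 per degree of freedom).

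On simulated data with 15977 genes this comparison recovered 30% of 100 genes changed by a log2 of 1 and 83% of 100 changed by 2, with 4 false calls. Alternatives used DESeq2 1.42.0, limma 3.58.1 and other filters, covariates and samples. Genes were named by rule: Dlgap1, all on/off genes, the stepped (10) and graded or overlapping (6) genes of each direction with the smallest p and a mean log2 CPM of at least 1, up to 4 called members of a list, and neighbours that moved oppositely. The members, classes and lists were chosen with earlier results of these data known. Gene order and promoter windows came from RefSeq (GRCm38.p6), which placed 99.0% of the genes tested; the files' build is mm9, so no other coordinates are given. The mm9 sequence derives from C57BL/6J, and the effect of strain variants on read assignment was not tested.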

Additional observations from a re-analysis of the deposited data

Results flagged for a closer look

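Among the 280 pairs of a named gene and a strain, 11 (3.93%) held 1 library that stood apart from the rest of its group; chance flags about 1 in 20 groups. Values are CPM. In B6 controls, Pira11 was at 0.0724 in replicate 4 and 0 in the others. H2-T24 was at 4.75 in B6 replicate 5 and 1.60 to 2.47 in the others, and Zfp874a was at 7.07 in the same library and 12.3 to 17.7 in the others. Vwf was at 3.52 in B6 replicate 6 and 8.30 to 13.5 in the others, and Srp54b was at 255 there and 128 to 169 in the others. Egln3 was at 3.08 in B6 replicate 1 and 8.62 to 15.1 in the others. In C3H tumours, Zfp781 was at 40.5 in replicate 1 and 29.8 to 31.4 in the others, and Col25a1 was at 0.177 in the same library and 0.631 to 0.754 in the others. Sp110 was at 2.58 in C3H replicate 2 and 1.27 to 1.32 in the others. Per3 was at 71.1 in C3H replicate 3 and 84.6 to 87.7 in the others. Gas5 was at 31.7 in C3H replicate 4 and 44.6 to 45.4 in the others.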

How the results depend on the processing

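No log2 fold change of the 140 named genes changed sign in the 18 to 22 alternatives run for each. The calls were less stable. Of the 126 named genes called, 21 were called under every alternative, and 102 lost their call with the replicate number as a block. The count of genes higher in C3H than in B6 control tumours was 142 and that of genes lower in C3H than in B6 control tumours 244; DESeq2 called 261 and 533, and an adjusted p under 0.01 left 67 and 86. With the 11 control libraries alone 102 genes were higher and 129 lower, and 27 calls of named genes were lost, among them the Cenpa log2 fold change (adjusted p = 0.0745), the Kif20a log2 fold change (0.0586), the Cdc25c log2 fold change (0.101) and the Srp54b log2 fold change (0.0684). Leaving out each library in turn gave 100 to 179 higher and 104 to 294 lower genes, with 23 to 24 on/off genes higher and 9 to 15 lower. An on/off limit of 2 CPM kept 17 of the 33 on/off genes in the class and gave 4 on/off genes lower in C3H. A limit of 0.5 CPM kept 30 of the 33. The lower strain passed 0.5 CPM in Dlgap1 (up to 0.967 CPM in C3H), Gm8909 (up to 0.564 CPM in B6) and Gbp1 (up to 0.549 CPM in B6). A gap of 2-fold gave 16 on/off genes lower in C3H. Same-numbered libraries of the strains did not deviate together (correlations from -0.314 to -0.000349), so the numbers are not taken to pair them; with the replicate number as a block, 18 genes were higher and 13 lower, with 9 and 2 on/off, and with the GC trend and the block 49 were higher and 94 lower, with 4 on/off genes lower. The GC trend of a library is the rank correlation, over genes, of level relative to the mean of all libraries with transcript GC share. It ran from -0.457 to 0.589 in B6 and from -0.213 to 0.458 in C3H controls. With the GC trend alone as covariate 453 genes were called, among them 353 of the 386 main calls. Of the 33 on/off genes, 12 were called with the block, 25 with both, and all 33 in the other 20 refits. The cause of these shifts was not tested. On simulated data 30% of genes changed by a log2 of 1 were recovered.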
